A study of Mus musculus with 12 samples.

Results

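The 10 genes Vegfa, Vegfb, Vegfc, Pgf, Angpt1, Angpt2, Apln, Adm, Dll4 and Esm1 encode signals that act on blood and lymphatic vessels, and they were taken by symbol from the 18609 genes listed in every library. All 10 were found, and all 10 were above the filter of 0.5 FPKM (fragments scaled for gene length and library depth) in every library, the lowest value being 1.29 FPKM for Adm. The tissue was tumour grown from MC38, a colon cancer line from the mouse, in C57BL/6 hosts, taken 1 day after an intravenous injection. The 4 groups of 3 libraries were wild-type hosts given phosphate-buffered saline (PBS), wild-type hosts given Salmonella, hosts with a TLR4 deletion (knockout below) given PBS, and knockout hosts given Salmonella. TLR4 is the receptor for bacterial lipopolysaccharide. Each group's libraries are labelled F-1, M-1 and M-2, without a word on whether these were different animals; the p-values therefore cover only library-to-library spread, which may be technical. Age, bacterial strain, dose, tumour site and which part of Tlr4 the deletion removes are not in the labels.

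New vessels sprout when endothelial tip cells follow a gradient of VEGFA, sensed by the receptor KDR, while DLL4 on the tip cell signals to NOTCH1 on its neighbours and holds them back from sprouting. VEGFB and placental growth factor (Pgf) bind FLT1, and VEGFC acts through FLT4, mainly on lymphatic vessels. ANGPT1 keeps vessels quiet through TIE2 (gene Tek) and ANGPT2, stored in endothelial cells, can oppose it; apelin (Apln) and adrenomedullin (Adm) are peptide hormones for the receptors APLNR and CALCRL, and ESM1 (endocan) is a proteoglycan of sprouting endothelium. In tumours, Vegfa, Adm and several others are known targets of the hypoxia-inducible factors (HIF).

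In wild-type hosts 6 of the 10 genes passed the test 1 day after Salmonella, 4 higher and 2 lower. Adm, Pgf, Angpt2 and Dll4 rose, and Apln and Vegfa fell. In knockout hosts 0 of the 10 passed, where 0.756% of all tested genes were called. Knockout and wild-type hosts given Salmonella differed in Adm and Dll4, both lower in the knockout, where 8.74% of all tested genes were called. Both calls were lost in several alternatives given below. The difference between the treatment effects in the 2 genotypes passed for 0 of the 10. Calls are limma's adjusted p under 0.05 over 12164 tested genes, on log2(FPKM / scaling factor + 0.5), a scale that understates changes of low genes. The treatment called 35.4% of all tested genes in wild-type hosts (19.4% higher and 16% lower), so 6 of 10 stands against a broad response. The members' median change there was 0.15 and that of all tested genes 0.00 on the log2 scale. Within the wild-type Salmonella group M-2 stood apart from F-1 and M-1 (scaling factors 1.03 against 0.842 and 0.844, and the lowest Adm, Pgf and Angpt2), so results that rest on it or on the other two are also given without them.

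**Figure D1:**
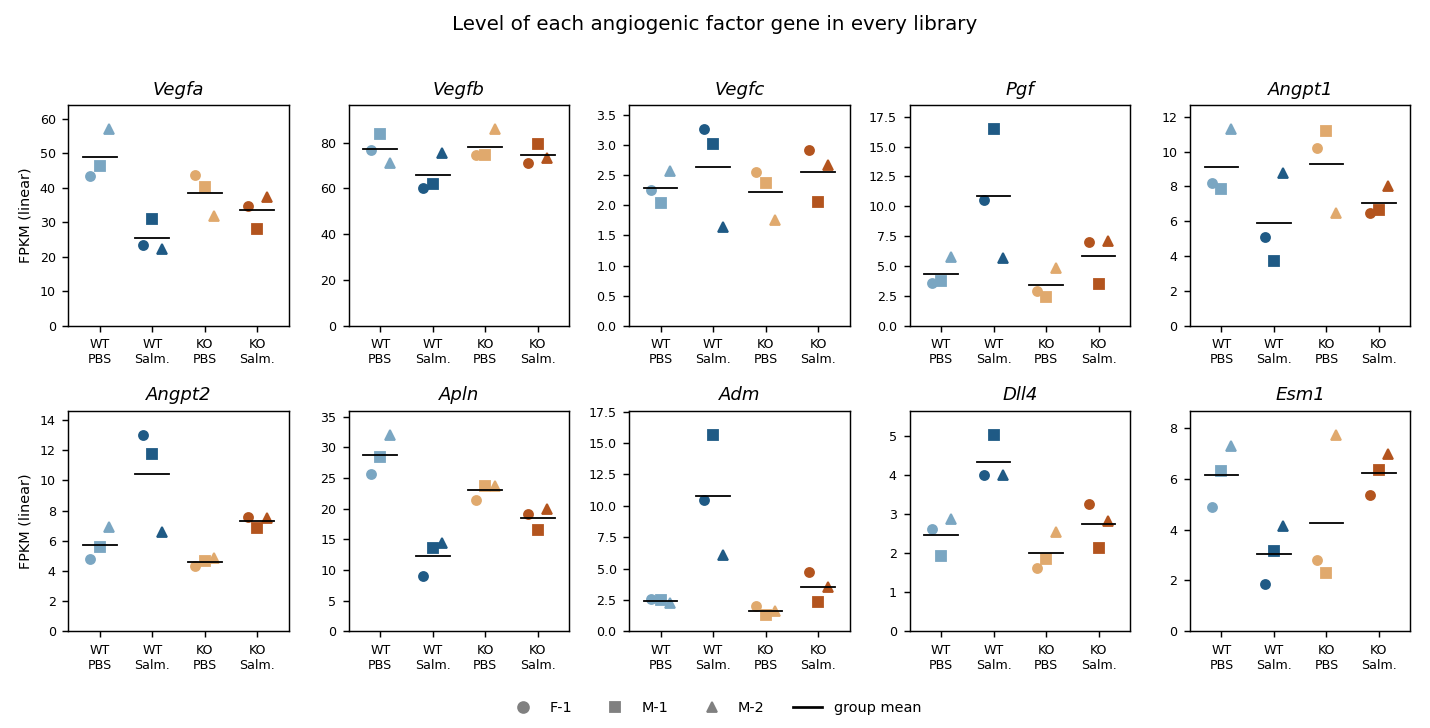
FPKM (linear axis from 0, own scale for each gene) of the 10 genes in every library, with the 4 groups on the x axis, a symbol for each library label and a line at each group's mean. In wild-type hosts given Salmonella, Adm lies at 6.09 to 15.7 FPKM against 2.28 to 2.55 under PBS, and Apln at 8.96 to 14.3 against 25.6 to 32.1.

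Promoter sequences are printed for Adm and Apln, the largest rise and the largest fall among the 10 genes in wild-type hosts, and for Vegfa, which held the one motif match. They are the 250 bases before the transcription start in RefSeq (GRCm38.p6), 5′ to 3′ on the gene's strand, and 8 of the 10 genes had an entry, with 10 start sites between them. Motifs were searched on both strands in windows of 300 bases (50 past the start). They were ACGTG, 1 form of the core of the hypoxia response element, and TGANTCA, the site of AP-1. The form of that core with G first, GCGTG, was not searched, so windows without a match may hold it. Capitals mark a match.
Adm, chr7:110627407-110627656, plus strand: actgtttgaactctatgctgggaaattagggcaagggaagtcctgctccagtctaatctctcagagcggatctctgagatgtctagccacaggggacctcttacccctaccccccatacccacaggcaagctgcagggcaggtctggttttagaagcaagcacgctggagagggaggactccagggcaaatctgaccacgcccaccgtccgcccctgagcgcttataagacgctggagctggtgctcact
Apln, chrX:48034854-48035103, minus strand: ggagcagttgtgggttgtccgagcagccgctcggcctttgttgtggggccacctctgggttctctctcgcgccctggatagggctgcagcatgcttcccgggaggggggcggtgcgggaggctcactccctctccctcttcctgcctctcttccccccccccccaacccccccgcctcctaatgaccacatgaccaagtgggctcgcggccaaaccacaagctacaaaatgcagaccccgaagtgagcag
Vegfa, upstream start, chr17:46032378-46032627, minus strand: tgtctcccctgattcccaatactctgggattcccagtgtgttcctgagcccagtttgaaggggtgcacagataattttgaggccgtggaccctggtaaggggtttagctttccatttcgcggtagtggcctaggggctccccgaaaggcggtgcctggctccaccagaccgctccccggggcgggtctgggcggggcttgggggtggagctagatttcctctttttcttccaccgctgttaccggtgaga
Vegfa, downstream start, chr17:46025164-46025413, minus strand: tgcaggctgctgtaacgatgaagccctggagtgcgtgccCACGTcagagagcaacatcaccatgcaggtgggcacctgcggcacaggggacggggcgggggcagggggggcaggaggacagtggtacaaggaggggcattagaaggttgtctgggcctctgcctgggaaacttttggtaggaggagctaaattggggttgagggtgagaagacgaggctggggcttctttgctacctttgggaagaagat
ACGTG (as CACGT on the printed strand) was found once, before the downstream start of Vegfa, so in 1 of the 8 genes, and 19.6% of all 32851 promoters of that length held it. That window lies past the upstream start, so the match is inside the gene as read from there. Whether it acts as a promoter site was not tested. TGANTCA was in 0 of the 8 genes and in 7.8% of all promoters. The windows of Adm, Apln, Vegfb, Vegfc, Pgf, Dll4 and Esm1 and that of the upstream Vegfa start thus hold neither set of letters, which describes these windows alone.

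Among the VEGF ligands, Vegfa fell in wild-type hosts. It was at 43.5, 46.2 and 56.9 FPKM in F-1, M-1 and M-2 under PBS and at 23.5, 30.9 and 22.2 under Salmonella. All 3 Salmonella libraries lay below all 3 PBS libraries. The change was -0.72 on the log2 scale (SE 0.19, adjusted p = 0.0142, limma), 1.65-fold lower; without the PBS library M-2 it was -0.63 with an adjusted p of 0.0524. In knockout hosts Vegfa was at 43.5, 40.3 and 31.9 FPKM under PBS and 34.8, 27.9 and 37.4 under Salmonella. These groups overlapped, and the change was -0.18 (95% interval -0.59 to 0.23, adjusted p = 0.627).

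Pgf, the ligand of FLT1 that is best known from the placenta and from inflamed tissue, rose in wild-type hosts, but with libraries far apart. It was at 3.55, 3.77 and 5.76 FPKM under PBS and at 10.5, 16.5 and 5.65 under Salmonella. F-1 and M-1 under Salmonella were above every PBS library, and M-2 lay just under the highest of them. The change was 1.34 (SE 0.43, adjusted p = 0.0351), 2.52-fold, and the call was lost without any 1 of 5 libraries: without F-1, M-1 or M-2 under PBS the adjusted p was 0.0985, 0.097 and 0.0552, and without F-1 or M-1 under Salmonella 0.114 and 0.12. In knockout hosts Pgf was at 2.91, 2.43 and 4.82 FPKM under PBS and 6.98, 3.48 and 7.06 under Salmonella, overlapping groups with a change of 0.71 (95% interval -0.24 to 1.67, adjusted p = 0.392).

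Vegfb had the highest level of the 10 genes, 65.8 ± 8.23 FPKM (SD, n = 3) in wild-type hosts given Salmonella and 74.7 to 78.3 FPKM on average in the other groups. Its change was -0.03 in wild-type hosts (95% interval -0.22 to 0.17, adjusted p = 0.843) and -0.04 in knockout hosts (95% interval -0.24 to 0.16, adjusted p = 0.833), the narrowest intervals among the 10 genes. Vegfc, the lymphatic ligand, had in wild-type hosts 2.04 to 2.56 FPKM under PBS and 1.64 to 3.27 under Salmonella, with a change of 0.32 (95% interval -0.22 to 0.85, adjusted p = 0.327). The low value was M-2 (1.64 FPKM, against 3.27 in F-1 and 3.01 in M-1), and without it the change was 0.66 with an adjusted p of 0.00694. In knockout hosts Vegfc was at 1.75 to 2.55 FPKM under PBS and 2.06 to 2.93 under Salmonella (adjusted p = 0.708).

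Since FPKM are per length, the ligand genes can be set side by side within a library. Vegfa made up 33.5%, 33.2% and 40.9% of the summed FPKM of Vegfa, Vegfb, Vegfc, Vegfd and Pgf in the wild-type PBS libraries and 23.4%, 27.0% and 20.6% under Salmonella. The share thus went from 35.9% ± 4.39 to 23.7% ± 3.21 (SD, n = 3) with no overlap, but 3 libraries against 3 cannot give a two-sided exact permutation p below 0.1, which is the value found (0.4 after adjustment over 4 comparisons). In knockout hosts it went from 30.6% ± 5.04 to 27.8% ± 3.29 (exact permutation p = 0.5). Vegfb made up 51.0% to 69.8% of the sum, more than any other ligand gene in each of the 12 libraries.

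Of the angiopoietins, Angpt2 rose in wild-type hosts and Angpt1 did not pass. Angpt2 was at 4.78, 5.56 and 6.89 FPKM under PBS and at 13.0, 11.8 and 6.56 under Salmonella. Again F-1 and M-1 stood well above the PBS libraries and M-2 lay within them. The change was 0.97 (SE 0.26, adjusted p = 0.016), 1.96-fold, and the call was lost without F-1 under PBS (adjusted p = 0.0545) and without F-1 or M-1 under Salmonella (0.0671 and 0.0626). In knockout hosts Angpt2 was at 4.31, 4.65 and 4.87 FPKM under PBS and 7.56, 6.82 and 7.53 under Salmonella. Every Salmonella library there was above every PBS library, with a change of 0.63 (SE 0.26, unadjusted p = 0.0316, adjusted p = 0.212, limma); without the wild-type Salmonella library M-2, which enters the shared estimate of spread, the adjusted p was 0.0177.

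In wild-type hosts Angpt1 was at 8.21, 7.87 and 11.3 FPKM under PBS and at 5.11, 3.74 and 8.78 under Salmonella, with a change of -0.46 (95% interval -0.97 to 0.05, adjusted p = 0.138). Without the Salmonella library M-2 it was -0.68 with an adjusted p of 0.0259. In knockout hosts Angpt1 was at 6.49 to 11.2 FPKM under PBS and 6.49 to 8.02 under Salmonella (change -0.32, adjusted p = 0.473). The balance of both genes is of interest because they compete for TIE2: the ratio of Angpt2 to Angpt1 FPKM was 0.582, 0.706 and 0.611 under PBS and 2.55, 3.14 and 0.747 under Salmonella where hosts were wild type. Knockout libraries had 0.423, 0.415 and 0.751 under PBS and 1.17, 1.03 and 0.939 under Salmonella. In both genotypes every Salmonella library had a higher ratio than every PBS library; the log2 ratio of FPKM + 0.5 differed by 1.42 in wild-type and 0.96 in knockout hosts, each with the smallest exact permutation p that 3 against 3 allow, 0.1 (0.2 adjusted over 4 comparisons). Knockout and wild type differed by -0.75 under Salmonella (exact permutation p = 0.4).

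**Figure D2:**
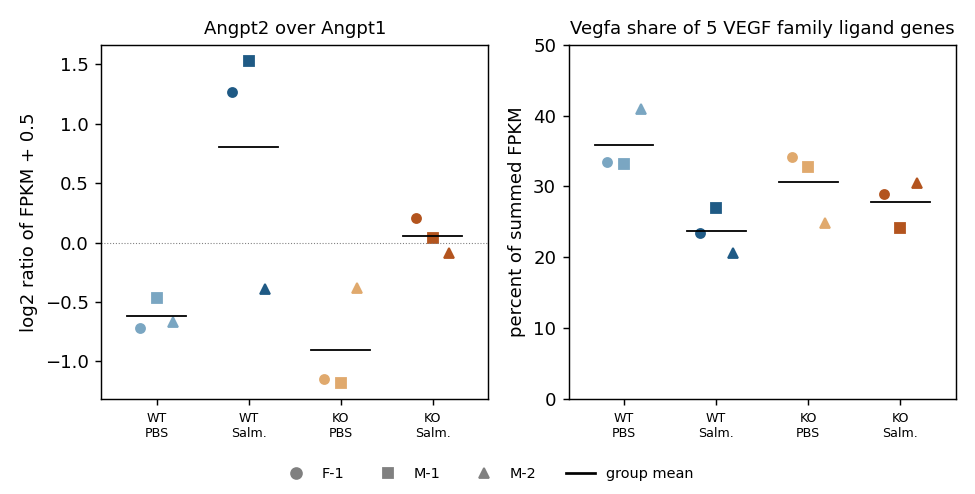
Left, log2 ratio of Angpt2 to Angpt1 (FPKM + 0.5) in every library by group; right, Vegfa as percent of the summed FPKM of 5 VEGF family ligand genes. Symbols stand for the library labels and lines for group means; the wild-type Salmonella library M-2 has a ratio of 0.747, near the PBS libraries, and F-1 and M-1 have 2.55 and 3.14.

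The peptide hormone genes moved in opposite directions. In wild-type hosts Adm was at 2.55, 2.46 and 2.28 FPKM under PBS and 10.5, 15.7 and 6.09 under Salmonella. Every Salmonella library was far above the PBS libraries, with M-1 the highest and M-2 the lowest. The change was 2.04 (SE 0.34, adjusted p = 0.0028), 4.12-fold, the largest rise among the 10 genes, and it passed without each single library (adjusted p of at most 0.0156). In knockout hosts Adm was at 2.04, 1.29 and 1.65 FPKM under PBS and 4.70, 2.37 and 3.55 under Salmonella. These groups did not overlap either, and the change of 0.89 had an unadjusted p of 0.0249 and an adjusted p of 0.199 (limma).

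In wild-type hosts Apln was at 25.6, 28.4 and 32.1 FPKM under PBS and 8.96, 13.6 and 14.3 under Salmonella. All 3 Salmonella libraries, M-2 included, lay far below the PBS libraries, and F-1 was the lowest. The change was -1.01 (SE 0.14, adjusted p = 0.000958), 2.01-fold lower, and it passed without each single library (adjusted p of at most 0.00585). In knockout hosts Apln was at 21.5, 23.7 and 23.8 FPKM under PBS and 19.1, 16.4 and 19.9 under Salmonella. The groups did not overlap, with a change of -0.28 (95% interval -0.58 to 0.01, adjusted p = 0.279).

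Dll4, the Notch ligand of tip cells and arteries, had in wild-type hosts 2.61, 1.92 and 2.87 FPKM under PBS and 3.98, 5.02 and 3.98 under Salmonella. The groups did not overlap, and the change was 0.90 (SE 0.20, adjusted p = 0.00731), 1.86-fold, passing without each single library (adjusted p of at most 0.0338). In knockout hosts Dll4 was at 1.62, 1.85 and 2.53 FPKM under PBS and 3.25, 2.14 and 2.83 under Salmonella, overlapping groups with a change of 0.39 (adjusted p = 0.305). Esm1 went the other way in wild-type hosts, at 4.89, 6.31 and 7.26 FPKM under PBS and 1.87, 3.15 and 4.12 under Salmonella. Its groups did not overlap, but the change of -0.76 did not pass (SE 0.35, adjusted p = 0.113). In knockout hosts Esm1 was at 2.79, 2.28 and 7.72 FPKM under PBS and 5.35, 6.35 and 6.98 under Salmonella. The PBS library M-2 lay above all the others of both groups, and the change was 0.69 (adjusted p = 0.319). Without that library the spread estimate was smaller: the adjusted p was 0.0265 for a change of 1.17 in knockout hosts and 0.0146 for -0.76 in wild-type hosts.

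**Figure D3:**
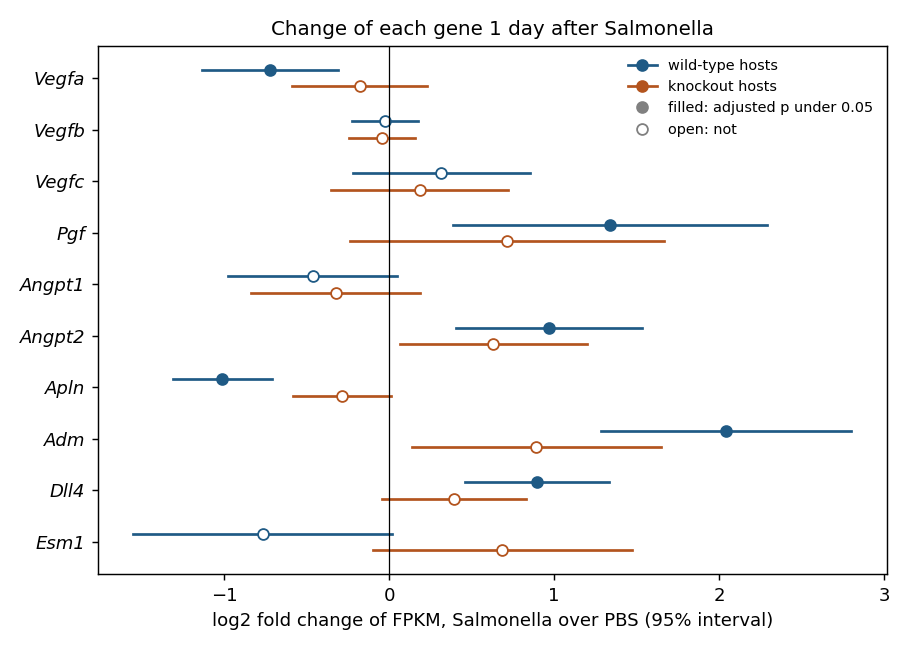
Change of each gene after Salmonella against PBS (log2 scale, x axis) in wild-type and knockout hosts, with 95% intervals; filled points passed at an adjusted p under 0.05. The 6 filled points are all of wild-type hosts, from Adm at 2.04 to Apln at -1.01.

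Counted over the 10 genes, groups did not overlap in deposited FPKM for 5 (Vegfa, Apln, Adm, Dll4, Esm1) in wild-type hosts, where 45.4% of all tested genes did not overlap, and for 3 (Angpt2, Apln, Adm) in knockout hosts, where the share over all tested genes was 29.4%. In knockout hosts 0 of 10 passed, against 0.756% of all tested genes. An unadjusted p under 0.05 (limma) was found there for 2 of 10 (Angpt2 and Adm) and for 2325 of all 12164 tested genes. With voom on the recovered fragments 0 of 10 passed the adjusted threshold as well. Without the wild-type Salmonella library M-2, 2 of 10 passed in knockout hosts, and so did 740 of all 12060 tested genes. Under PBS, 0 of 10 genes and 0% of all tested genes differed between knockout and wild type by limma. At an unadjusted p under 0.05 there was 1, Apln (limma, -0.31, unadjusted p = 0.0447, adjusted p = 1), and voom called 0. By limma, 176 of all 12164 tested genes had an unadjusted p under 0.05 there. Apln and Adm were the genes whose PBS groups did not overlap, both lower in the knockout (7.89% of all tested genes did not overlap).

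Given Salmonella, knockout hosts had less Adm and Dll4 than wild-type hosts. These 2 of 10 genes compare with 8.74% of all tested genes called (2.88% higher and 5.86% lower in the knockout), and 4 of 10 (Apln, Adm, Dll4, Esm1) did not overlap, against 27.0% of all tested genes. Adm differed by -1.60 (SE 0.34, adjusted p = 0.0241), 3.03-fold lower, with 2.37 to 4.70 FPKM against 6.09 to 15.7. The call was lost without F-1 or M-1 of wild-type Salmonella (adjusted p = 0.115 and 0.0897) and without M-1 or M-2 of knockout Salmonella (0.0976 and 0.0772). Dll4 differed by -0.75 (SE 0.20, adjusted p = 0.0426), 1.68-fold lower, and its call was lost when any of F-1 and M-1 of wild-type Salmonella, M-1 and M-2 of knockout Salmonella, F-1 and M-2 of wild-type PBS or F-1 and M-1 of knockout PBS was left out (adjusted p of 0.0515 to 0.171). By limma it was also lost in FPKM as deposited (adjusted p = 0.0587), without the filter (0.0662), and with the replicate block (0.0564) or title letter (0.0534). The same held with only the groups compared (limma, 0.118) and with voom (0.0544). For Adm the call was lost with voom (0.0533) and with only the groups compared (limma, 0.133).

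Apln and Esm1 were higher in every knockout Salmonella library than in every wild-type one, without passing: Apln by 0.42 (adjusted p = 0.0738; 0.0327 for a difference of 0.59 in FPKM as deposited) and Esm1 by 0.81 (adjusted p = 0.153). Pgf and Angpt2 had differences of -0.96 (adjusted p = 0.162) and -0.61 (adjusted p = 0.141), with the wild-type library M-2 inside the knockout range or below it. Both genotype and treatment comparisons share groups of libraries, so their values are not independent. The difference between the treatment effects in the 2 genotypes passed for 0 of 10 genes by limma, against 0.0247% of all tested genes, and voom called 0 of 10. At an unadjusted p under 0.05 there were 3: Apln (0.72, adjusted p = 0.217), Adm (-1.15, adjusted p = 0.325) and Esm1 (1.45, adjusted p = 0.279). Over all 12164 tested genes there were 1748. Without the wild-type Salmonella library M-2, 3 of 10 genes passed, Adm (-1.58, adjusted p = 0.0101), Angpt2 (-0.72, 0.018) and Apln (0.75, 0.0305). Between genotypes under Salmonella 6 of 10 then differed. In that setting 2210 of all 12060 tested genes passed for the interaction, and 4545 differed between genotypes under Salmonella.

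Ordered by mean FPKM, Apln and Vegfa had the same order of groups: wild-type PBS highest (28.7 and 48.9 FPKM), then knockout PBS (23.0 and 38.5), knockout Salmonella (18.5 and 33.4) and wild-type Salmonella lowest (12.3 and 25.5). For Apln no 2 neighbours in this order overlapped. For Vegfa each pair of neighbours overlapped. Adm and Dll4 had wild-type Salmonella highest (10.7 and 4.33 FPKM), then knockout Salmonella (3.54 and 2.74), wild-type PBS (2.43 and 2.46) and knockout PBS (1.66 and 1.999); knockout Salmonella overlapped wild-type PBS for both. Pgf and Angpt2 followed the same order as Adm and Dll4 (10.9 and 10.4, 5.84 and 7.30, 4.36 and 5.75, 3.38 and 4.61 FPKM).

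Genes of the receptors on which these ligands act mostly rose in wild-type hosts. Of 14 tested receptor and co-receptor genes, 9 rose and 2 fell, with a median change of 0.93. Tie1, Kdr and Ramp2 also count among the endothelial markers below, and Flt4 among the lymphatic ones, so these lists overlap. Tek (TIE2) went from 0.187 ± 0.123 to 1.03 ± 0.247 FPKM (change 1.28, SE 0.21, adjusted p = 0.00189) and Calcrl, the adrenomedullin receptor, from 0.736 ± 0.223 to 2.46 ± 0.592 (1.42, adjusted p = 0.00205). Aplnr, the apelin receptor, went from 0.987 ± 0.589 to 4.51 ± 0.385 FPKM (2.02, adjusted p = 0.00251) while its ligand gene fell. Ackr3, an atypical receptor that binds CXCL12 and adrenomedullin, had 7.90 ± 0.981 and 15.0 ± 2.69 FPKM (1.08, adjusted p = 0.00252; SD, n = 3 for all). The members that fell were Nrp1, a VEGF co-receptor (-1.07, adjusted p = 0.00405), and Notch1 (-0.68, adjusted p = 0.00796), and Kdr, the main VEGFA receptor, did not pass (0.23, adjusted p = 0.322). In knockout hosts 0 of 14 passed (median 0.24), and 0 of 14 passed for the difference between the treatment effects in the 2 genotypes. Between knockout and wild type under Salmonella 7 of 14 were lower, 4 without the filter, and 0 with only the groups compared or without F-1 or M-1 of wild-type Salmonella or M-1 or M-2 of knockout Salmonella.

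Among 5 tested Notch ligand and target genes, 1 rose and 2 fell in wild-type hosts. Hes1, a transcriptional repressor induced by Notch, fell by 1.11 on the log2 scale (adjusted p = 0.00241), from 11.98 ± 1.92 to 4.73 ± 1.86 FPKM, and the ligand Jag1 had a change of -0.46 (adjusted p = 0.0417). Nrarp, an inhibitor and target of Notch signalling, rose by 0.69 (adjusted p = 0.022). Leaving out 1 library lost the call of Jag1 for M-1 or M-2 of wild-type PBS, F-1 or M-1 of wild-type Salmonella, F-1 of knockout PBS or M-2 of knockout Salmonella (adjusted p up to 0.148). That of Nrarp was lost without any wild-type PBS library or F-1 or M-1 of wild-type Salmonella (up to 0.0739). In knockout hosts 0 of the 5 passed, and 0 passed for the difference between the treatment effects in the 2 genotypes.

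Of 11 other angiogenic ligand genes tested, 3 rose and 1 fell in wild-type hosts, where 35.4% of all tested genes were called. Angptl4, a lipase inhibitor with effects on vessel permeability, had 7.74 ± 1.03 and 42.7 ± 12.2 FPKM (change 2.56, adjusted p = 0.000447). Cxcl12, a chemokine for endothelial and blood progenitor cells, had 2.25 ± 0.869 and 10.4 ± 2.43 (2.21, adjusted p = 0.00305), and the growth factor Ereg had 2.16 ± 0.951 and 4.72 ± 1.79 (1.15, adjusted p = 0.0321). The call of Ereg was lost without F-1 or M-1 of either wild-type group (adjusted p up to 0.13). Tgfb1 fell, from 60.7 ± 4.19 to 42.3 ± 6.10 FPKM (-0.32, adjusted p = 0.00953). In knockout hosts 0 of the 11 passed, and 0 passed for the difference between the treatment effects in the 2 genotypes.

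Of 13 secreted inhibitors of angiogenesis tested, 5 rose and 0 fell in wild-type hosts, with a median change of 0.31. Pf4, platelet factor 4, went from 9.46 ± 0.381 to 131.6 ± 10.1 FPKM (3.93, SE 0.16, adjusted p = 2.1e-07) and Thbs1, thrombospondin 1, from 14.3 ± 1.86 to 210.8 ± 158.9 (3.72, adjusted p = 0.00145). Sparcl1, a matrix protein, and Sema3f, a semaphorin that binds neuropilins, rose by 1.31 (adjusted p = 0.00234) and 1.24 (adjusted p = 0.00298). Pf4 is also a platelet gene. Of the other platelet markers, Ppbp rose (3.07, adjusted p = 0.000343), from 0.08 ± 0.10 to 4.46 ± 2.46 FPKM, and Itga2b, at 0.34 ± 0.02 and 0.56 ± 0.14, did not pass (adjusted p = 0.0715). The remaining listed platelet markers did not reach the filter, and 0 to 6 of the 9 were at 0 in a library. The part of platelets in the Pf4 result was not tested. In knockout hosts Pf4 alone of the 13 passed (1.78, adjusted p = 0.00169).

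The list of HIF subunits, their regulators and known hypoxia targets had 20 tested genes, of which 2 rose and 8 fell in wild-type hosts (median -0.21). The 2 that rose are both HIF alpha subunits, Epas1 (HIF-2 alpha; 2.44, adjusted p = 0.002) and Hif1a (0.88, adjusted p = 0.00555). Those that fell include targets and HIF hydroxylases: Egln1 (-1.06, adjusted p = 0.000598), Pdk1 (-0.73, adjusted p = 0.000946) and Car9, carbonic anhydrase 9, from 73.1 ± 15.1 to 16.8 ± 8.47 FPKM (-1.97, adjusted p = 0.00254). Vegfa and Adm, both also HIF targets, fell and rose in the same libraries. The count that fell was 5 without M-1 or M-2 of wild-type PBS or without F-1 of wild-type Salmonella, and 11 in FPKM as deposited, where the median over all genes was shifted by -0.19. In knockout hosts 0 of the 20 passed (median -0.05), and 0 passed for the difference between the treatment effects in the 2 genotypes.

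**Figure D4:**
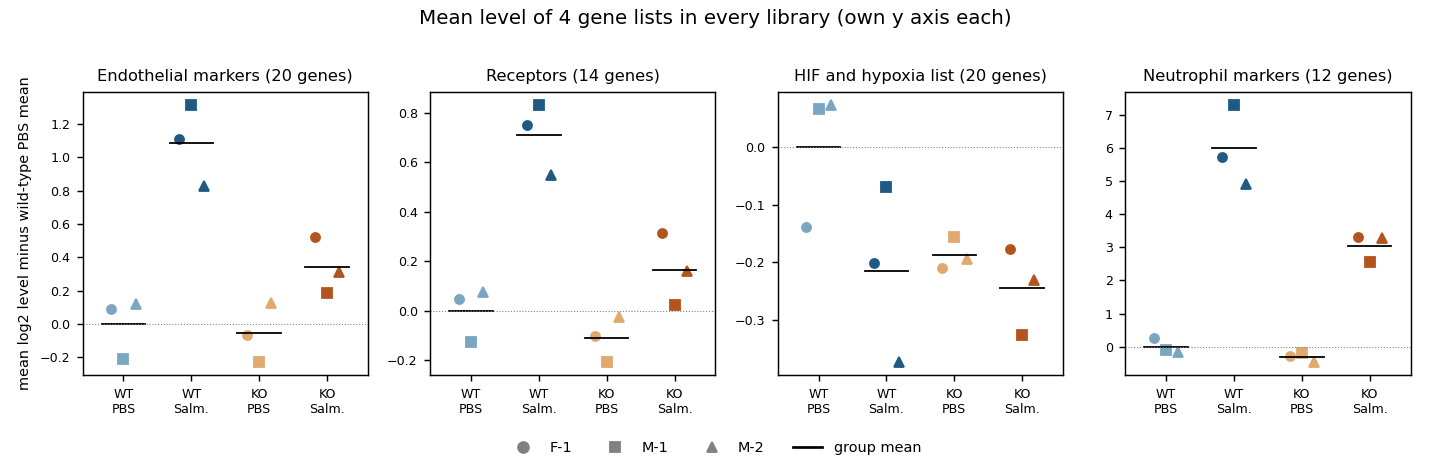
Mean log2(FPKM / scaling factor + 0.5) of 4 gene lists in every library, as a difference from the wild-type PBS mean (own y axis each), with symbols for F-1, M-1 and M-2 and lines at group means. The endothelial mean lies 0.83 to 1.32 above that level in wild-type hosts given Salmonella and 0.19 to 0.52 above it in knockout hosts given Salmonella.

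Markers of several cell types moved with these groups. Of 20 endothelial markers 17 rose and 0 fell in wild-type hosts (median 1.21; summed level 205.6 to 238.1 FPKM under PBS and 288.3 to 311.2 under Salmonella), led by Sox18 (1.78, adjusted p = 0.000148), Emcn (1.78, 0.000598), Plvap (1.17, 0.000696) and Esam (1.60, 0.00111). No endothelial marker was at 0 in any library. In knockout hosts 0 of 20 passed (median 0.41, summed 208.8 to 238.1 and 231.0 to 244.7 FPKM), where 0.756% of all tested genes were called. The difference between the treatment effects in the 2 genotypes passed for 0 of 20. Under Salmonella 13 of 20 were lower in knockout than in wild-type hosts, and 8 without the filter. That count was 1 with only the groups compared or without F-1 or M-1 of wild-type or M-1 or M-2 of knockout Salmonella. In bulk tissue, fewer cells of a type and less RNA per cell cannot be told apart. In wild-type hosts, the log2 level of Dll4 minus the mean of the endothelial markers was -0.74 ± 0.07 under PBS and -0.93 ± 0.05 under Salmonella, and that of Angpt2 0.33 ± 0.27 and 0.21 ± 0.47. For Apln this difference went from 2.56 ± 0.22 to 0.47 ± 0.33, for Esm1 from 0.42 ± 0.33 to -1.43 ± 0.50 and for Vegfa from 3.32 ± 0.21 to 1.51 ± 0.14, and for Adm from -0.74 ± 0.22 to 0.21 ± 0.56 (SD, n = 3). Of the 10 members 7 were lower relative to these markers under Salmonella, without overlap: these 4 (Dll4, Apln, Esm1, Vegfa) and Vegfb, Vegfc and Angpt1. Adm was higher without overlap, and Angpt2 and Pgf overlapped. Vegfb, whose own change was -0.03, went from 3.98 ± 0.30 to 2.86 ± 0.24, so a lower value here also holds the rise of the markers themselves. The share of all tested genes that were lower on this measure was not computed, so the 7 of 10 does not set the members apart.

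Of 12 neutrophil markers 12 rose in wild-type and 7 in knockout hosts, from summed levels of 19.996 to 30.5 and 17.2 to 20.9 FPKM under PBS to 3225 to 21230 and 583.6 to 1110 under Salmonella. The 7 in knockout hosts became 1 with voom, 4 without F-1 or M-1 of knockout PBS and 3 without F-1 or M-2 of knockout Salmonella. M-1 of wild-type Salmonella was the highest of these libraries and M-2 the lowest of its group, the order that Adm and Pgf also had. This order was not particular to neutrophil markers. By mean log2 level the endothelial, fibroblast and receptor lists had it too, and the macrophage, skeletal muscle and pericyte lists did not. Of 9 skeletal muscle markers tested 7 rose in wild-type hosts (summed 5.05 to 10.7 and 52.6 to 106.3 FPKM); knockout Salmonella libraries ranged from 6.25 to 131.8. The 7 muscle markers became 4 without F-1 or M-1 of wild-type PBS or with voom, and 2 and 3 without F-1 and M-1 of wild-type Salmonella, each left out alone. Of 10 fibroblast markers 6 rose and of 10 pericyte markers 4 rose and 2 fell in wild-type hosts. Of 10 tip cell markers 3 rose and 1 fell, and within wild-type Salmonella the 3 became 0 without F-1, 1 without M-1 and 6 without M-2. Of 4 lymphatic endothelial markers 2 rose, and 1 did without M-1 of wild-type PBS. Of 12 macrophage markers Mrc1 rose and Cx3cr1 and Trem2 fell. The call of Mrc1 was lost without F-1 of wild-type Salmonella (adjusted p = 0.0589), and that of Trem2 without M-1 or M-2 of wild-type PBS, F-1 or M-1 of wild-type Salmonella or F-1 of knockout PBS (up to 0.121). Of 8 T and NK cell markers Cd8a alone fell, and its call was lost without any of the wild-type PBS libraries, M-1 or M-2 of wild-type Salmonella or F-1 or M-2 of knockout Salmonella (up to 0.124), with voom, with a pseudocount of 1 and without the filter. Of 7 epithelial markers none reached the filter, with a summed level of 0.446 to 2.53 FPKM and 0 to 3 of them at 0 in a library, so the labelled colon cancer cells were not seen by those markers. The part of these cell types in the members' changes was not tested.

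Over the 12 libraries, Pgf, Angpt2, Adm and Dll4 went together, with Pearson r of 0.87 (Angpt2 and Dll4) to 0.94 (Pgf and Dll4) between pairs of them, and Vegfa and Apln had an r of 0.81. These are descriptions over 4 groups that differ in treatment, and the points share library, scaling and cell content. By the same measure, among 10778 genes with a mean of at least 1 FPKM, the genes most like each were Arhgap29 and Tie1 for Dll4 (r of 0.98 and 0.98), Mrps33 and Rpl7 for Angpt2 (0.99 and 0.98), and Ier3 and Mmp10 for Pgf (0.97 and 0.97). For Apln they were Amz1 and Selenbp1 (0.98 and 0.97), for Vegfa Kif21b and P4ha1 (0.96 and 0.93), for Vegfc H2-Q9 and Spata5l1 (0.95 and 0.94), for Angpt1 Hivep3 and Dcp1a (0.94 and 0.93), for Esm1 Sirt5 and Mst1 (0.91 and 0.91) and for Vegfb Pcgf2 and Mapk3 (0.90 and 0.87).

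Libraries held 30512075 to 38764511 fragments on listed genes, and the members 69 (Adm) to 8823 (Vegfa) fragments in a library. The scaling factors were 0.842 and 0.844 for F-1 and M-1 of wild-type Salmonella and 1.00 to 1.05 for the other 10 libraries. In FPKM as deposited, without these factors, the median of all genes shifted by -0.19 in wild-type hosts and 30.8% of called genes were higher, against 54.7% with them. The same 6 members passed there. Between genotypes under Salmonella that shift was 0.16, and 58.5% of called genes were higher in the knockout against 32.9%; in knockout hosts 67.2% of called genes were higher after Salmonella against 56.5%. When F-1 and M-1 of wild-type Salmonella were both left out, so that M-2 stood alone and was assumed to vary like the other groups, Apln and Vegfa still passed and Adm (adjusted p = 0.0814), Dll4 (0.248), Pgf (0.695) and Angpt2 (0.556) did not; 0 of 13 receptor genes and 3 of 19 endothelial markers then rose. Tlr4 was at 2.53 ± 0.05 (PBS) and 2.99 ± 0.68 FPKM (Salmonella) in wild-type hosts and at 2.29 ± 0.79 and 1.83 ± 0.12 in knockout hosts (SD, n = 3), so its transcript, counted over the whole gene, does not check the genotype labels.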

How the data were processed

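RNA-seq libraries of 12 tumour samples were compared in 4 groups of 3, read from the genotype and treatment labels. Per the submitters' processing notes, fastp, HISAT2 and HTSeq were used, without versions or roles; RNA was taken with TRIzol and libraries made with the VAHTS Universal V6 kit, per the labels' protocols. A strand setting, the build and the annotation are, like a unit, not given in the sources used here. Values that the authors deposited, 1 column a library, behave as FPKM, fragment counts scaled by gene length and by the library's fragments on listed genes. A single length per gene turned them into whole fragments in every library, with a tolerance of 0.01 fragments, for 18221 of 18222 genes above 0 (99.99%), and so gave the depth of 30512075 to 38764511 fragments. As FPKM are not counts, limma 3.58.1 (R 4.3.3; trend and robust settings, all 12 libraries, 1 mean per group, 8 residual degrees of freedom, two-sided, Benjamini-Hochberg over all tested genes) was run on log2(FPKM / scaling factor + 0.5). Genes reaching 0.5 FPKM in 3 or more libraries were tested, and over them scaling factors came from a trimmed mean of log ratios, trimming 30% by ratio and 5% by level. The fit was run on simulated data with 1 spread per gene for all 4 groups and no library standing apart. That run therefore cannot show how the fit behaves with a library like M-2 of wild-type Salmonella.

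The members and lists were chosen with earlier results of these data known. Named genes are all members and, per list, up to 4 with the smallest p among those called in wild-type hosts and those called for the interaction; Kdr, Nrp1, Notch1 and Hif1a were named outside that rule after their values were seen. Likeness used Pearson r, leaving out predicted and RIKEN symbols. The likeness result for Adm is not reported here. Alternatives were median-of-ratios scaling, no scaling, pseudocounts of 0.1 and 1, no filter, the replicate label or title letter as a covariate, voom on the recovered fragments, the compared groups alone and each library left out; leaving out F-1 and M-1 of wild-type Salmonella was added after seeing the data.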

Additional observations from a re-analysis of the deposited data

Results flagged for a closer look

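Pf4, the platelet chemokine on the list of angiogenesis inhibitors, had treatment effects that differed between genotypes by the test of that difference: 3.93 in wild-type and 1.78 in knockout hosts on the log2 scale, an interaction of -2.15 (SE 0.23, limma, adjusted p = 0.0084). Every Salmonella library was above every PBS library in both genotypes. The interaction passed without each single library (adjusted p of at most 0.045). It was -2.17 with voom on the recovered fragments (adjusted p = 0.0511) and -2.07 without both F-1 and M-1 of wild-type Salmonella (0.157), of like size but not passing. Ppbp, another platelet chemokine, had an interaction of -1.71 that did not pass (adjusted p = 0.225).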

How the results depend on the processing

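In wild-type hosts 6 of the 10 genes passed, 5 with voom or only the groups compared, 4 to 8 when 1 library was left out, and 2 without F-1 and M-1 of wild-type Salmonella. In knockout hosts the count of 0 became 1 with only the groups compared, 2 without that pair and 0 to 2 with 1 library left out. Between genotypes under Salmonella the 2 calls became 1 without the filter, with the replicate block and with the title letter, 0 with voom, with only the groups compared and without that pair, and 0 to 6 with 1 library left out. In FPKM as deposited Dll4 lost the call between genotypes under Salmonella and Apln gained it. For the interaction, leaving out 1 library gave 0 to 3. The 5 in wild-type hosts with only the groups compared is a net count. Pgf (limma, adjusted p = 0.0692) and Angpt2 (0.0743) lost the call there, and Esm1 (0.048) gained it. Under the replicate block, Pgf in wild-type hosts had an adjusted p of 0.0571 and Esm1 of 0.0457. Same-label libraries did not vary together throughout (r of -0.33 to 0.40). What libraries of the same label have in common was not tested. Not every library correlated best with its own label. Signs turned for 6 values, all near 0 or not called: Vegfb in wild-type hosts (-0.10 to 0.023 with 1 library left out) and in knockout hosts (-0.082 to 0.030), and, without that pair, Vegfc in wild-type hosts (-0.36), Angpt2 under Salmonella (0.15) and the interactions of Pgf (0.34) and Angpt2 (0.43). Median-of-ratios scaling and pseudocounts of 0.1 and 1 changed none of the 36 member values' calls.

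Over all tested genes the calls in wild-type hosts were 4308, with 2429 when only the groups compared were used, 226 without that pair and 2050 to 6197 with 1 library left out. In knockout hosts 92 became 33 without the filter, 46 with the replicate block, 22 with voom, 186 with only the groups compared, 756 without that pair and 4 to 740 with 1 library left out. Between genotypes under Salmonella 1063 became 529 with voom, 12 with only the groups compared, 3 without that pair and 10 to 4545 with 1 library left out, and for the interaction 3 became 6 in FPKM as deposited, 0 with voom or without that pair and 2 to 2210. Each upper end is without M-2 of wild-type Salmonella; the cause was not tested. Depth was not varied; members rest on 69 to 8823 fragments in a library.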
